A study of Mus musculus with 4 samples.

Results

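Malat1, Neat1, Meg3, Rian, Mirg, Kcnq1ot1 and H19 are 7 long noncoding RNAs of the mouse that are transcribed in the nucleus, 5 of them from imprinted loci. They were taken by gene symbol from the 32285 genes of the count matrices, and all 7 were present. Single-nucleus RNA-Seq had been done on the lungs of 2 WT mice of the strain C57/BL6J and 2 VEcad-TRF2DN-Tg mice, all 8 to 9 weeks old. The study's methods and figure legends give the mice as male and exposed to chronic hypoxia, so that both genotypes share this exposure. The Tg mice carry dominant-negative TRF2, a telomere-binding protein, under the VE-cadherin promoter, which is active in endothelial cells (ECs), and the transcript of the transgene was not analysed here. The comparisons ask how far each RNA stays with nuclei, in which cell classes it is high, and whether its level differs between the genotypes.

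Malat1 and Neat1 are neighbouring genes whose transcripts remain in the nucleus. Malat1 RNA gathers in nuclear speckles, which store splicing factors, and Neat1 RNA is the scaffold around which paraspeckles form. Meg3, Rian and Mirg lie in a row in the Dlk1-Dio3 imprinted domain and are expressed from the maternal chromosome, and Rian and Mirg carry clusters of small nucleolar RNAs and miRNAs. Kcnq1ot1 is transcribed from the paternal chromosome, antisense to the potassium channel gene Kcnq1, and silences neighbouring genes in cis, whereas H19 is the maternally expressed partner of Igf2 and is abundant in the fetus and shut off in most tissues after birth.

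In the mm10 annotation Malat1 (ENSMUSG00000092341) spans chr19:5795690-5802672 on the minus strand and Neat1 (ENSMUSG00000092274) spans chr19:5824708-5845478 on the same strand, 22035 bases away. Meg3 (ENSMUSG00000021268, chr12:109541001-109571726), Rian (ENSMUSG00000097451, chr12:109603940-109661716) and Mirg (ENSMUSG00000097391, chr12:109729764-109749460) follow each other on the plus strand, with gaps of 32213 and 68047 bases. Kcnq1ot1 (ENSMUSG00000101609, chr7:143203458-143296549) and H19 (ENSMUSG00000000031, chr7:142575529-142578143) lie on the minus strand. Meg3 overlaps Gm26906 on the opposite strand, Kcnq1ot1 overlaps Kcnq1 on the opposite strand, and Rian overlaps Gm26945 on its own strand. Whether counting used the strand is not given in the sources used here, so that reads of such overlapping genes are uncertain.

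The libraries were made with a 3′ kit, in which reverse transcription starts at runs of A. The mature 3′ end of Malat1 has no poly(A) tail, and long unspliced nuclear RNAs hold runs of A inside, so that the longest run of at least 8 A in the longest transcript is shown for Malat1, Rian and Kcnq1ot1 with 25 bases on either side, read from mm10 on the strand of the transcript, with the run in capitals.
Malat1-201, chr19:5795963-5796024, minus strand: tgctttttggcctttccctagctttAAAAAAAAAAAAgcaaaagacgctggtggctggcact
Rian-201, chr12:109652204-109652268, plus strand: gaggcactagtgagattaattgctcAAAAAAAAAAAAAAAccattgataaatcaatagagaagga
Kcnq1ot1-201, chr7:143226920-143227010, minus strand: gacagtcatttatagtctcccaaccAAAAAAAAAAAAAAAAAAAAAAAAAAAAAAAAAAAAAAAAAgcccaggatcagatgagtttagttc
Malat1-201 (6983 bases) held 1 such run, of 12 A, 298 bases from its 3′ end. Rian-201 (8089 bases) held 2 with a longest of 15 A, and Kcnq1ot1-201 (93092 bases) held 30 with a longest of 41 A. The searched windows of Neat1-201 (20771 bases), Mirg-204 (3822 bases) and H19-202 (2286 bases) held 0. Such runs are common: of annotated transcripts of like length, 64.6% of 48 for Malat1, 100% of 4 for Neat1, 59.3% of 27 for Rian, 37.8% of 653 for Mirg, 100% of 1 for Kcnq1ot1 and 29.3% of 1605 for H19 held at least 1. The use of these runs by the libraries was not tested.

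The imprinted RNAs also host miRNAs, whose mature sequences from RefSeq (GRCm38.p6) are shown because they name the products that these loci are known for; miRNAs themselves were not measured. The annotation places 1 miRNA hairpin inside Meg3, where the mature miR-1906 lies too, 3 inside Rian beside 13 small nucleolar RNAs, 14 inside Mirg and 1 inside H19. Capitals mark the seed, bases 2 to 8.
miR-770-5p in Meg3, chr12:109563710-109563731: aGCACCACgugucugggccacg
miR-370-3p in Rian, chr12:109618305-109618326: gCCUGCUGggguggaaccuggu
miR-453 in Mirg, chr12:109735669-109735692: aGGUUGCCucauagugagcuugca
miR-496a-5p in Mirg, chr12:109739132-109739152: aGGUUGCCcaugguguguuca
miR-675-5p in H19, chr7:142577112-142577133: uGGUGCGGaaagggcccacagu
Only miR-453 and miR-496a-5p, both within Mirg, had the same seed among the mature miRNAs matched to the members.

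The matrices held 125261739 to 182014706 UMIs per mouse over all barcodes, and UMIs (unique molecular identifiers, each counting 1 captured molecule) are given per 1000000 UMIs of the same sum (CPM). There were 26933, 38543, 25269 and 44000 barcodes with 1500 or more UMIs in WT mouse 1, WT mouse 2, Tg mouse 1 and Tg mouse 2, and values of 4 mice are given in this order throughout. Any pair of mice had 176 to 475 such barcodes in common. Clusters whose profile was close to that of the droplets held 14929 (55.4%), 23084 (59.9%), 678 (2.68%) and 9998 (22.7%) of them, and these are called droplet-like. Markers gave a class to 10638 (39.5%), 13954 (36.2%), 20167 (79.8%) and 27688 (62.9%). Barcodes with 300 to 800 UMIs stand for droplets without a nucleus, and their secretoglobin transcripts, which come from airway secretory cells, were at 18067, 16393, 139156 and 48379 CPM, so that the free RNA of the Tg libraries differed from that of the WT libraries. The share of free RNA, taken as the lower of 2 estimates, was 23 to 68.7% in the classes; by secretoglobins alone it was 23 to 68.7% and by surfactant proteins alone 23.2 to 110%, with the values over 100% in alveolar type 2-like nuclei of the WT mice, which make these proteins.

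Meg3 and Kcnq1ot1 were the members whose rise from droplets to barcodes with 1500 or more UMIs passed the test. Malat1, Neat1 and Rian were higher there in every mouse too. The other members did not pass the test, which compared both sums within each mouse in edgeR, with Benjamini-Hochberg adjustment over 20117 genes. In that test 2 of the 7 members passed an adjusted p of 0.05, as did 30.5% of all genes tested, and the median log2 change of the genes was 0.04.

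Kcnq1ot1 was at 221, 295, 120.2 and 168 CPM in the droplets and at 293, 460, 560.5 and 511 CPM in the barcodes with 1500 or more UMIs. It was higher in the latter in every mouse, by 1.33, 1.56, 4.66 and 3.04 times. The log2 change was 1.11 with an SE of 0.25 (edgeR, adjusted p = 0.011). Without Tg mouse 2 the change was 0.96 and did not pass (edgeR, adjusted p = 0.12). In barcodes with 1 to 49 UMIs Kcnq1ot1 was at 244, 309, 275 and 312 CPM, below the barcodes with 1500 or more UMIs in every mouse. With droplets of 50 to 200 UMIs, which held 3, 4, 6 and 6 Kcnq1ot1 UMIs, it was at 225, 342, 604 and 353 CPM, above the larger barcodes in Tg mouse 1, and the log2 change of 1.13 did not pass (edgeR, adjusted p = 0.12).

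Meg3 was at 10.8, 16.1, 8.25 and 5.64 CPM in the droplets and at 14.1, 27.3, 28.4 and 24.2 CPM in the barcodes with 1500 or more UMIs, from 961, 2979, 2128 and 3443 UMIs. Again every mouse was higher in the latter, by 1.3, 1.69, 3.44 and 4.29 times. The log2 change was 1.05 with an SE of 0.22 (edgeR, adjusted p = 0.0093). Without Tg mouse 2 it was 0.87 (edgeR, adjusted p = 0.087). The rise is that over droplets of 300 to 800 UMIs. Barcodes with 1 to 49 UMIs were at 24, 39.7, 22.8 and 25.5 CPM of Meg3 (63, 165, 60 and 110 UMIs), above the barcodes with 1500 or more UMIs in every mouse but Tg mouse 1.

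Malat1, the most abundant of the members in UMIs, was at 30803, 30177, 49093 and 44074 CPM in the droplets. It was at 32292, 38853, 89643 and 48842 CPM in the barcodes with 1500 or more UMIs, so that all mice were higher there, by 1.05 to 1.83 times. In barcodes with 50 to 200 UMIs it was at 43107, 45634, 70509 and 66089 CPM, above the barcodes with 1500 or more UMIs in every mouse but Tg mouse 1, from 576, 533, 701 and 1122 UMIs. In barcodes with 1 to 49 UMIs it was at 25536, 26864, 52942 and 32693 CPM, below the barcodes with 1500 or more UMIs in every mouse. Against the droplets of 300 to 800 UMIs the log2 change of 0.26 (SE 0.49) did not pass (edgeR, adjusted p = 0.71), and against those of 50 to 200 UMIs, with TMM scaling, it was 0.65 (edgeR, adjusted p = 0.023), so that the CPM of 3 mice and the scaled test differed in direction there. Malat1 thus made up several percent of the UMIs in barcodes without a nucleus too.

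Neat1 was at 1097, 1006, 593 and 855 CPM in the droplets and at 1423, 1232, 1179 and 1065 CPM in the barcodes with 1500 or more UMIs. Each mouse was higher in the latter, by 1.22 to 1.99 times, with a log2 change of 0.39 and an SE of 0.20 (edgeR, adjusted p = 0.15). The direction depended on the droplets, since Neat1 was at 1796, 2226, 2213 and 2356 CPM in barcodes with 50 to 200 UMIs (24, 26, 22 and 40 Neat1 UMIs), above the barcodes with 1500 or more UMIs in every mouse. Barcodes with 1 to 49 UMIs, at 2238, 2270, 1525 and 2140 CPM (5876, 9435, 4014 and 9247 Neat1 UMIs), were above them in every mouse too. With only the barcodes given a class, a setting chosen later with the data known, the log2 change was 0.55 and passed (edgeR, adjusted p = 0.023).

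Rian was at 3.42, 7.28, 2.38 and 1.03 CPM in the droplets and at 4.38, 8.71, 4.64 and 4.45 CPM in the barcodes with 1500 or more UMIs, with a log2 change of 0.54 and an SE of 0.24 (edgeR, adjusted p = 0.11). Mirg was counted in 1, 9, 2 and 0 UMIs in the droplets and in 30, 138, 50 and 76 UMIs in the barcodes with 1500 or more UMIs. Its log2 change was 0.75 with an SE of 0.50 (edgeR, adjusted p = 0.27). H19 was almost undetected, with 0, 1, 11 and 11 UMIs in the barcodes with 1500 or more UMIs and 0, 0, 5 and 1 UMIs in the droplets, and its level was not compared further.

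**Figure D1:**
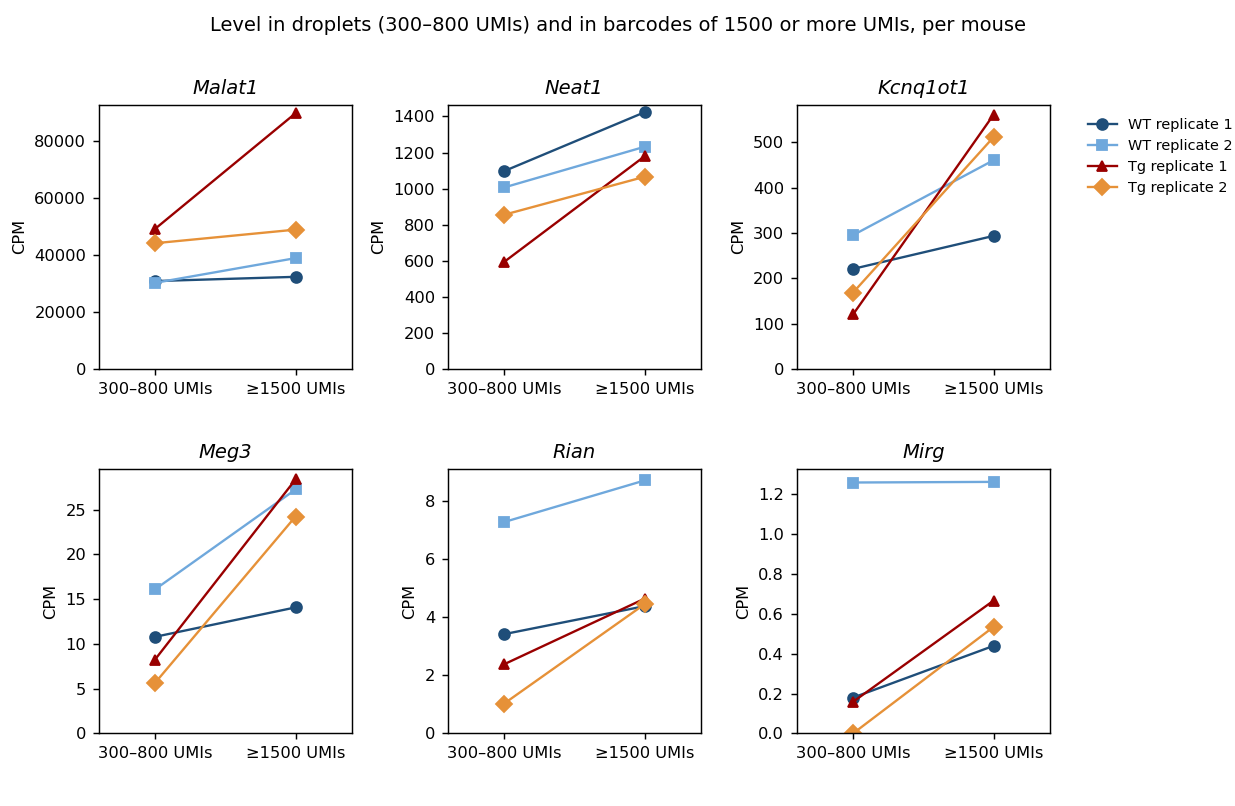
The plot gives the CPM of 6 members in barcodes with 300 to 800 UMIs and in barcodes with 1500 or more UMIs, with 1 point per mouse and a line joining both values of a mouse. Kcnq1ot1, Meg3, Malat1, Neat1 and Rian rise in all 4 mice. For Kcnq1ot1, Meg3, Rian and Mirg the lines of the Tg mice are steeper, with few droplet UMIs for Rian and Mirg. Malat1 is high in both kinds of barcodes.

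Other nuclear RNAs and partner genes were placed beside the members. Of 20 other long noncoding RNAs tested, 8 were higher and 4 lower in the barcodes with 1500 or more UMIs than in the droplets, with a median log2 change of 0.52. Airn, a long imprinted antisense RNA of the Igf2r locus, rose by 1.28 on the log2 scale, and Lncpint by 1.01. Of 11 genes tested in the imprinted domains of the members, 1 was higher and 3 were lower, with a median of -0.76. The one that rose was Kcnq1, on the strand opposite Kcnq1ot1, with a log2 change of 1.01 (SE 0.22, edgeR, adjusted p = 0.010), and it was at 154, 95.3, 88 and 86.6 CPM in the barcodes with 1500 or more UMIs and at 107, 70.0, 20.1 and 31.8 CPM in the droplets. The growth inhibitor Cdkn1c, which Kcnq1ot1 silences on the paternal chromosome, fell by 0.93, as did the membrane protein gene Cd81, and Tssc4 fell by 0.84. Igf2, the partner of H19, was counted in 48, 79, 124 and 161 UMIs in the barcodes with 1500 or more UMIs, and Dlk1, the paternal gene of the Meg3 domain, in 1, 10, 0 and 1 UMIs.

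No transcript of the proteins that Malat1 and Neat1 RNA gather with passed as higher, and the share that passed as lower was near that of all genes, of which 13.5% were higher and 17.0% lower. Of 17 paraspeckle protein genes tested, 0 were higher and 3 lower in the barcodes with 1500 or more UMIs (median -0.04), and of 21 nuclear speckle protein genes 0 were higher and 5 lower (median -0.21). Hnrnpk fell by 0.84, Hnrnpa1 by 0.55 and Nono by 0.45, all of them RNA-binding proteins of paraspeckles, and the splicing factor gene Srsf2 fell by 0.73. Of 24 secretoglobin, surfactant protein, haemoglobin and mitochondrial genes taken as references for free RNA, 0 were higher and 14 lower, with a median of -0.91. Of 17 other imprinted genes, 3 were higher and 1 lower, with a median of 0.05.

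Cell classes were named "-like" from marker genes, and the members were kept out of the genes that formed them. Classes with at least 20 barcodes in every mouse numbered 16, and the levels are given as a description with the spread over mice.

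Malat1 was highest in alveolar type 1-like nuclei, the flat gas-exchange epithelium, in all 4 mice, at 71667, 87856, 197981 and 96857 CPM. Alveolar type 2-like nuclei, the surfactant-producing epithelium, followed at 37345, 43787, 103975 and 58295 CPM, and the level in type 1-like nuclei was 1.66 to 2.01 times as high in the same mouse. Alveolar macrophage-like nuclei were lowest on average, at 24261, 26108, 60412 and 35958 CPM. Tg mouse 1 was the highest in every class, and because the mice differed more than neighbouring classes did, the ranges of all neighbours in the order overlapped. Between them lay, in falling order of the mean, pericyte-, alveolar fibroblast-, mesothelial-, aerocyte-, club-, lymphatic EC-, dendritic-, general capillary EC-, venous EC-, ciliated-, monocyte or interstitial macrophage-, B- and T-like nuclei, with means of 58956 to 36986 CPM. Against the droplets of the same mouse, Malat1 was 2.2 to 4.03 times as high in alveolar type 1-like nuclei but 0.788 to 1.23 times as high in alveolar macrophage-like nuclei.

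Neat1 was also highest in alveolar type 1-like nuclei, at 3419, 2780, 2181 and 1981 CPM. Alveolar type 2-like nuclei were second, at 1896, 1690, 1623 and 1433 CPM, and these ranges did not overlap, with a ratio of 1.34 to 1.80 in the same mouse. All later neighbours overlapped, from club-like nuclei (mean 1264 CPM) and ciliated-like nuclei (mean 1206 CPM) down to B-like nuclei. These were lowest on average, though not in every mouse, at 863, 823, 568 and 819 CPM. After each barcode was thinned to 1500 UMIs, a Neat1 UMI was found in 97.5, 97.4, 94.3 and 93.2% of alveolar type 1-like nuclei. The share in droplet-like barcodes was 78.5, 75.6, 65.1 and 70.4%.

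Kcnq1ot1 followed another order. Ciliated-like nuclei were highest on average at 717, 1097, 926 and 963 CPM, and alveolar macrophage-like nuclei, the lowest for Malat1, were next at 596, 927, 871 and 981 CPM. In Tg mouse 2 the macrophages were the higher of the pair, and the ratio between these classes was 0.982 to 1.2. Pericyte-like nuclei were at 472, 658, 495 and 715 CPM and club-like nuclei at 375, 594, 644 and 601 CPM. Venous EC-like nuclei were lowest on average, though not in every mouse, at 158, 267, 252 and 259 CPM. The ranges of all neighbours overlapped, but ciliated-like nuclei were 3.68 to 4.54 times as high as venous EC-like nuclei in the same mouse. With free RNA subtracted, alveolar macrophage-like nuclei led with a mean of 1202 CPM against 1195 CPM in ciliated-like nuclei. A Kcnq1ot1 UMI was found in 60.6, 71.0, 70.6 and 70.9% of thinned ciliated-like nuclei and in 29.5, 39.0, 21.2 and 26% of thinned droplet-like barcodes.

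**Figure D2:**
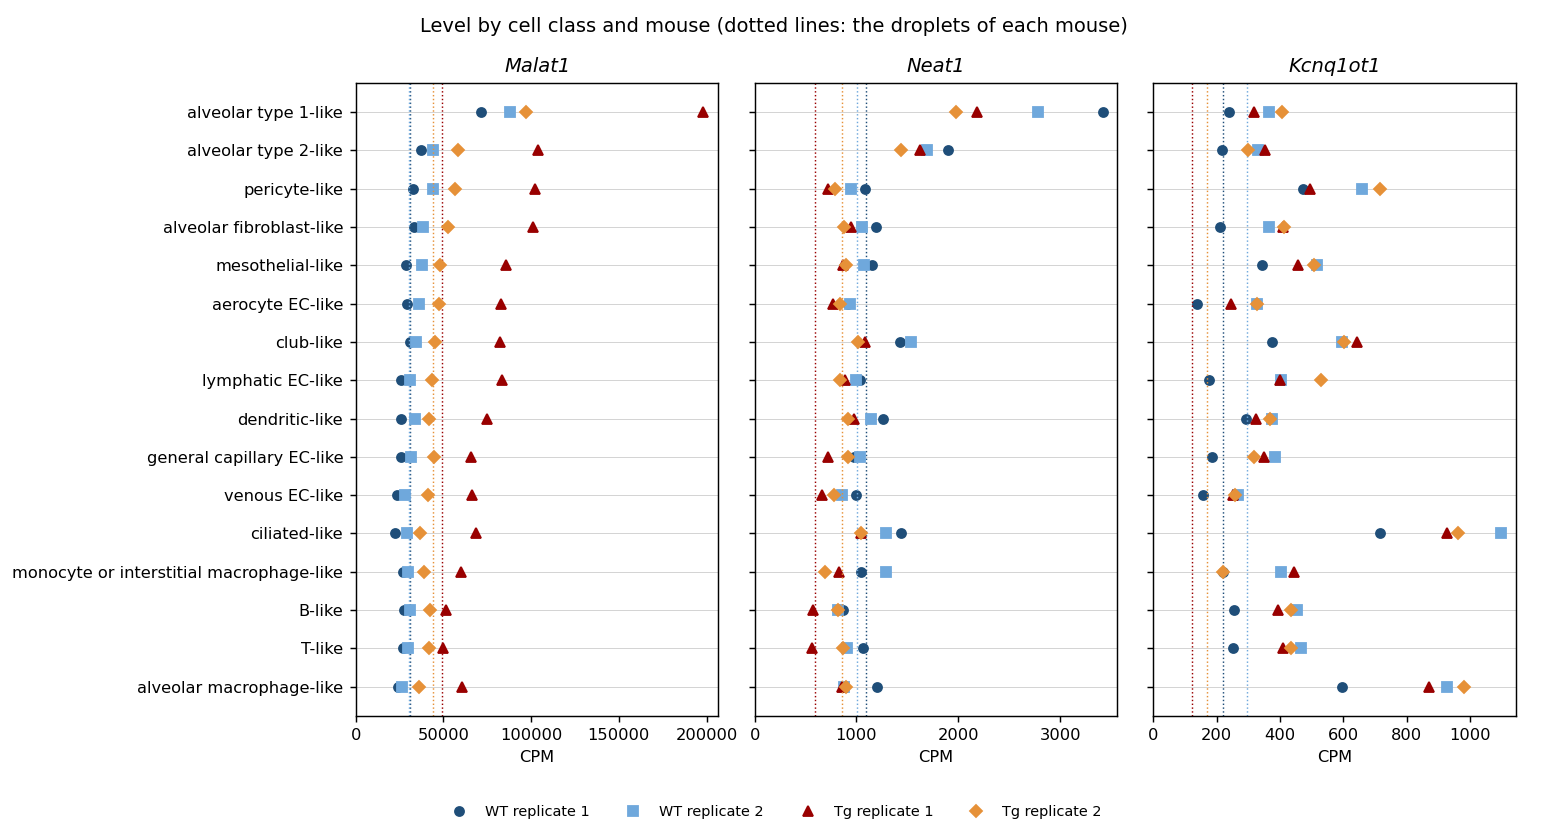
The CPM of Malat1, Neat1 and Kcnq1ot1 is shown in 16 cell classes with 1 point per mouse, and the dotted lines mark the droplets of 300 to 800 UMIs. Alveolar type 1-like nuclei lead for Malat1 and Neat1, whereas ciliated-like and alveolar macrophage-like nuclei lead for Kcnq1ot1.

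Meg3 was highest in pericyte-like nuclei, the mural cells of capillaries, and lower in all other classes present in every mouse. It was at 327, 291, 318 and 327 CPM in pericyte-like nuclei, from 54, 88, 92 and 232 UMIs in 49, 64, 89 and 161 barcodes. The mean was 316 CPM with an SD of 17.1 (n = 4). Mesothelial-like nuclei, the lining of the lung surface, were second at 24.6, 232, 62.4 and 69.6 CPM and did not overlap with pericyte-like nuclei. Alveolar fibroblast-like nuclei followed at 13.3, 54.4, 64.1 and 43.1 CPM and alveolar type 2-like nuclei at 21.5, 15.3, 19.2 and 15 CPM. Alveolar macrophage-like nuclei were lowest on average, though not in every mouse, at 3.18, 6.53, 5.22 and 2.84 CPM, and pericyte-like nuclei were 44.5 to 115 times as high. From the mesothelial class downwards the ranges of all neighbours overlapped.

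Set against free RNA, Meg3 was 18.1 to 57.9 times as high in pericyte-like nuclei as in the droplets of the same mouse. In alveolar type 1-like and alveolar macrophage-like nuclei it was below the droplets, at 0.291 to 0.732 and 0.294 to 0.632 times their level. A Meg3 UMI was found in 36.8, 30.1, 34.1 and 38.1% of pericyte-like nuclei thinned to 1500 UMIs, against 1.35, 1.99, 0.68 and 1.05% of droplet-like barcodes. Before thinning, the share in pericyte-like nuclei was 59.2, 56.2, 51.7 and 64.6% at median depths of 2743, 3357, 2496 and 3335 UMIs, and the median depths of the droplet-like barcodes were 1686, 1827, 1645 and 1704 UMIs.

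Some classes were missing from 1 or more mice. Adventitial fibroblast-like nuclei, the matrix-producing cells around vessels and airways, were at 972 CPM in WT mouse 1, 865 CPM in Tg mouse 1 and 712 CPM in Tg mouse 2, from 100, 135 and 64 UMIs. A Meg3 UMI was found in 58.6, 54.7 and 55.7% of these nuclei after thinning. Arterial EC-like nuclei in the same mice were at 176, 263 and 93.3 CPM, whereas general capillary EC-like nuclei, the most numerous ECs, were at 4.19, 9.73, 11.7 and 8.40 CPM in the 4 mice. Smooth muscle-like nuclei, the other mural cells, were found only in Tg mouse 2, at 61.9 CPM from 11 UMIs, below the pericyte-like and mesothelial-like nuclei of that mouse. NK-like nuclei, absent from WT mouse 1, were at 9.26, 7.76 and 5.78 CPM from 1 UMI each, which is near or below the level of the droplets.

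Among the classes present in every mouse, Rian, the next gene downstream, was also highest in pericyte-like nuclei, at 36.3, 79.4, 55.4 and 38.1 CPM. Mesothelial-like nuclei followed at 10.5, 57.8, 9.83 and 10.3 CPM, from 20, 345, 73 and 148 UMIs. Adventitial fibroblast-like nuclei, where present, were at 194, 167 and 189 CPM. Aerocyte-like nuclei, the capillary ECs specialised for gas exchange, were lowest on average, though not in WT mouse 2, at 0, 5.40, 0 and 0 CPM. A Rian UMI was found in 6.30, 6.43, 7.28 and 5.24% of thinned pericyte-like nuclei against 0.60, 1.09, 0.230 and 0.350% of droplet-like barcodes. Mirg was counted in 0, 65, 8 and 23 UMIs in mesothelial-like nuclei and in 0, 2, 3 and 5 UMIs in pericyte-like nuclei.

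Of the 3 RNAs of the Dlk1-Dio3 domain, Meg3 and Rian had similar orders over the 16 classes, while Mirg had 0 UMIs in 3 classes and 1 to 6 in 8 more, so that its order rests mostly on counts at the floor. Spearman's rho between the class means was 0.71 for Meg3 and Rian, 0.67 for Meg3 and Mirg and 0.62 for Rian and Mirg, over points that share libraries and depth. For the other pairs of members it was between -0.26, for Malat1 and Kcnq1ot1, and 0.50, for Malat1 and Meg3, with 0.44 for Malat1 and Neat1. In the barcodes with 1500 or more UMIs, Rian made up 23.7% (exact binomial 95% interval 21.4 to 26.2) and 24.2% (22.9 to 25.6) of the Meg3 and Rian UMIs together in the WT mice. In the Tg mice the share was 14.1% (12.7 to 15.5) and 15.5% (14.4 to 16.7), below both WT mice, and the intervals cover counting error only. Within mesothelial-like nuclei the shares were 29.9, 19.9, 13.6 and 12.9%, and in alveolar fibroblast-like nuclei 20, 23.6, 12.1 and 16.5%, without overlap of the genotypes. Club-like nuclei, at 31.25, 29.3, 20.7 and 19.4%, did not overlap either. In WT mouse 1 these classes held only 20, 4 and 10 Rian UMIs. Within pericyte-like nuclei the shares were 10.0, 21.4, 14.8 and 10.4%, with overlap. Alveolar type 2-like nuclei, at 21.5, 25.9, 16.7 and 23.2%, and ciliated-like nuclei, at 28.9, 13.9, 14.7 and 14.6%, overlapped as well. In droplet-like barcodes, more common in the WT libraries, Rian took 30.2% in WT mouse 1, 34.2% in WT mouse 2 and 25% in Tg mouse 2. Barcodes above the droplets of 300 to 800 UMIs but under 1500 UMIs did not overlap either, at 31.4, 33.9, 20.8 and 20.7%. In the droplets the Rian share was 24.1% in WT mouse 1, 31.1% in WT mouse 2 and 22.4% in Tg mouse 1. Tg mouse 2 held only 2 Rian UMIs there. The part of free RNA in the genotype gap was not tested, and shares of other gene pairs were not computed.

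**Figure D3:**
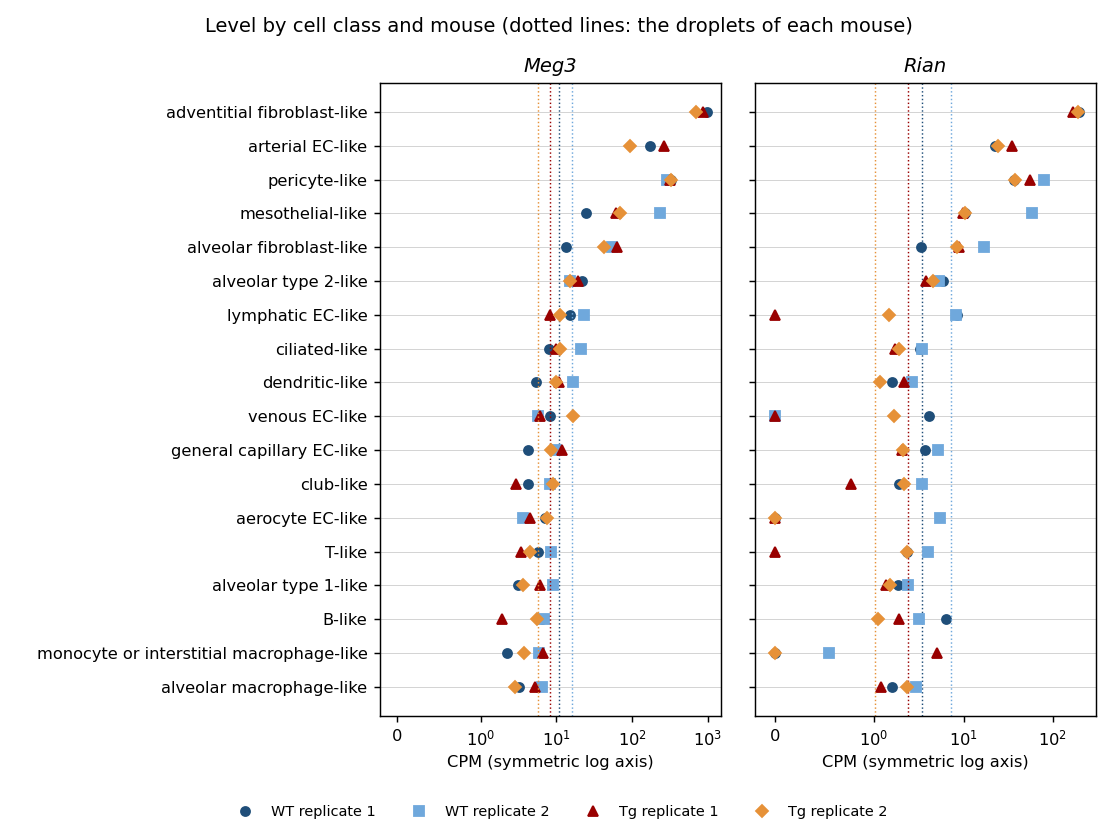
The CPM of Meg3 and Rian is shown by cell class on a symmetric log axis with 1 point per mouse and dotted lines for the droplets of each mouse, including adventitial fibroblast-like and arterial EC-like nuclei, which were not present in every mouse. Adventitial fibroblast-like and pericyte-like nuclei lie farthest to the right for both genes, and the mesothelial-like points of Meg3 spread from 24.6 to 232 CPM.

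The spread of Meg3 in the mesothelial-like class lay between clusters inside it. In WT mouse 2 a cluster of 508 of the 1177 barcodes (43.2%) was at 576 CPM and held 95.2% of the class's Meg3 UMIs, 96.8% of its Rian UMIs and 93.9% of its Mirg UMIs. Tg mouse 1 had such a cluster of 135 of 2175 barcodes (6.21%) at 511 CPM, with 43.2% of the Meg3 and 46.6% of the Rian UMIs. In Tg mouse 2 it was 162 of 3402 barcodes (4.76%) at 728 CPM, with 48.9% of the Meg3 and 56.8% of the Rian UMIs. All other clusters of the class in these mice were at 13.6 to 42.5 CPM. Of these, 3 in Tg mouse 1 and 3 in Tg mouse 2 had 60.1 to 90.5% of their barcodes called doublets, against 11.1 to 25.3% in the 3 clusters rich in Meg3, while the largest other cluster of each mouse had 26.2, 1.08 and 0.46% and was at 18.2, 40.6 and 40.3 CPM. The single cluster of WT mouse 1, with 415 barcodes, was at 24.6 CPM.

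These Meg3-rich clusters expressed Wt1, the transcription factor of the mesothelium, at 417, 462 and 458 CPM against 113 to 270 CPM in the other clusters, of which those rich in doublets were at 113 to 166 CPM, and 7 or 8 of the 8 mesothelial markers were at least 2-fold higher in them than in the barcodes that were neither mesothelial-like nor droplet-like. In the largest other mesothelial-like cluster of the same mice Wt1 was at 182, 214 and 216 CPM. No other listed mesothelial marker was above that cluster in all 3 Meg3-rich clusters. Against that cluster, though not against every other one, Gpm6a, a membrane glycoprotein gene, was lower, at 1669, 1985 and 2063 CPM against 2995, 3055 and 3597 CPM, and so was Msln, which encodes mesothelin, at 75.1, 276 and 317 CPM against 155, 447 and 468 CPM. Upk3b was lower too, at 175, 401 and 326 CPM against 189, 478 and 389 CPM, and so was Rspo1, at 103, 207 and 190 CPM against 168, 317 and 256 CPM. Muc16, a mucin gene, was lower in WT mouse 2 and Tg mouse 2, at 585 and 831 CPM against 601 and 867 CPM, and higher in Tg mouse 1, at 978 against 867 CPM. Lrrn4 was higher only in WT mouse 2 and Upk1b only in Tg mouse 1. Of the 8 adventitial fibroblast markers, 4, 3 and 3 were 2-fold higher in the Meg3-rich clusters and 1 to 3 in the other clusters. The genes Sntg1, Rbfox1, Pcdh15, Il1rapl1 and Zfp804b were among the leading genes of all 3 Meg3-rich clusters, and Sntg1 or Il1rapl1 was among those of some other mesothelial-like clusters too. Among thinned mesothelial-like barcodes with a Meg3 UMI, 24.0, 16.4 and 13% had a Rian UMI in WT mouse 2, Tg mouse 1 and Tg mouse 2, against 2.84, 0.438 and 0.282% of those without. WT mouse 1 did not show this, with a Rian UMI in 0 of 12 barcodes with Meg3 and in 6 of 403 (1.49%) without.

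**Figure D4:**
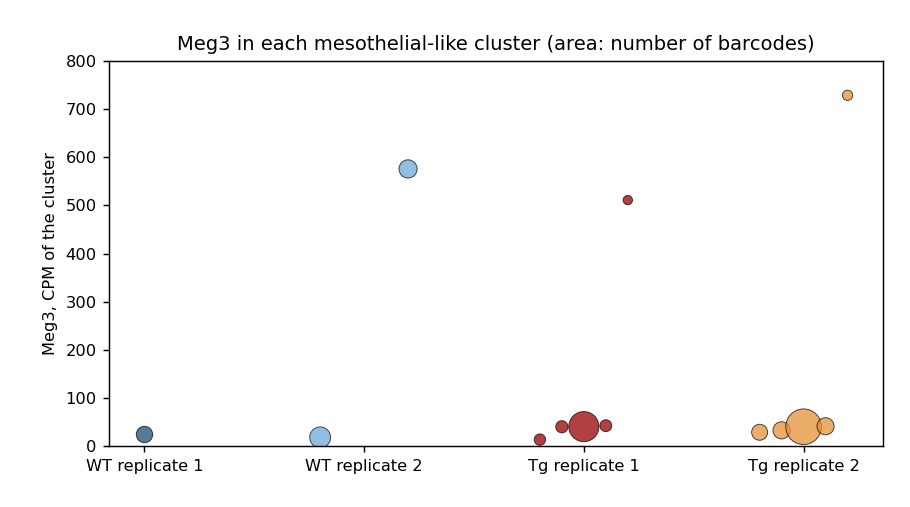
Each point is the Meg3 CPM of a mesothelial-like cluster in 1 mouse, and its area gives the number of barcodes. WT mouse 2, Tg mouse 1 and Tg mouse 2 each have a cluster at 511 to 728 CPM, while their other clusters lie at 13.6 to 42.5 CPM and the cluster of WT mouse 1 lies at 24.6 CPM.

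The genes with the order of classes most like that of a member were found by Spearman's rho over the 16 classes, among 14309 genes. For Malat1 these were Foxo3 (0.929), Wtip (0.921) and Pabpn1 (0.868), and for Neat1 they were 2900089D17Rik (0.909), Gm19325 (0.888) and C430014B12Rik (0.879). For Meg3 they were 9530026P05Rik (0.885), Ppp2r3a (0.879) and Tle6 (0.876), and for Rian Tmem178 (0.888), BC028777 (0.847) and Lca5l (0.835). For Kcnq1ot1 they were Anxa11 (0.871), Sobp (0.850) and Gm42869 (0.832).

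Between the genotypes, the level of no member passed the test in the barcodes with 1500 or more UMIs. Of 6 members tested, 0 passed in edgeR, 0 had an unadjusted p under 0.05 and 0 passed in DESeq2. Of all genes, 4.08% passed in edgeR and 15.6% in DESeq2. H19 was too low to be tested. Only 2 mice were compared with 2, p-values measure the spread between these samples, and in sums over all barcodes a different mix of classes and a different level per nucleus cannot be told apart. Droplet-like barcodes are part of these sums, with shares of 55.4% (WT mouse 1), 59.9% (WT mouse 2), 2.68% (Tg mouse 1) and 22.7% (Tg mouse 2). Their unequal share cannot be separated from a different level per nucleus there either. Kcnq1ot1 averaged 241 CPM in droplet-like barcodes and 490 CPM in those given a class. For Malat1 these means were 41879 and 54388 CPM, and for Neat1 894 and 1333 CPM.

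Malat1 was higher in both Tg mice (89643 and 48842 CPM) than in both WT mice (32292 and 38853 CPM), as were 36.7% of all genes tested. The log2 difference was 0.91 with an SE of 0.59 (edgeR, adjusted p = 0.35). Kcnq1ot1 too was higher in both Tg mice, at 560.5 and 511 CPM against 293 and 460 CPM, with a log2 difference of 0.45 and an SE of 0.25 (edgeR, adjusted p = 0.29). Neat1 was lower in both Tg mice, at 1179 and 1065 CPM against 1423 and 1232 CPM, as were 26.1% of all genes, and its log2 difference was -0.30 with an SE of 0.22 (edgeR, adjusted p = 0.40). Meg3 overlapped between the genotypes, with a log2 difference of 0.29 (SE 0.33, edgeR, adjusted p = 0.58). It was -0.27 with only the barcodes given a class, -0.08 with doublets left out and -0.11 without WT mouse 1, but larger than 0.29 without WT mouse 2. Rian and Mirg overlapped as well, at -0.58 (SE 0.38, edgeR, adjusted p = 0.35) and -0.57 (SE 0.57, edgeR, adjusted p = 0.54).

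In the droplets, 0 of the 5 members tested passed in edgeR and 0 had an unadjusted p under 0.05, while 25.6% of all genes passed. DESeq2, which called 24.4% of all genes, called 1 member, Malat1, with a log2 difference of 0.84 (adjusted p = 0.027), against 0.87 with an SE of 1.58 in edgeR (adjusted p = 0.70). Malat1 was higher in the droplets of both Tg mice, as were 27.4% of the genes. Neat1, Meg3, Rian and Kcnq1ot1 were lower in the droplets of both Tg mice, as were 41.6% of the genes, with log2 differences of -0.32, -0.59, -1.11 and -0.62 (edgeR, adjusted p = 0.53, 0.29, 0.20 and 0.12).

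Kcnq1ot1 and Meg3 differed between the genotypes in how much higher they were in the barcodes with 1500 or more UMIs than in the droplets. The difference was tested as an interaction in edgeR, in which 2 of 7 members passed, as did 26.2% of all genes tested. For Kcnq1ot1 the log2 rise was larger in the Tg mice by 1.18 with an SE of 0.16 (edgeR, adjusted p = 6.4e-05), and for Meg3 by 0.94 with an SE of 0.25 (edgeR, adjusted p = 0.0089). Both have a level in the droplets that was lower in the Tg mice, where secretoglobin transcripts took a larger share of the droplets. With secretoglobin, surfactant protein, haemoglobin and mitochondrial genes left out of the totals and the test, the difference was 1.27 for Kcnq1ot1 (edgeR, adjusted p = 1.0e-06) and 1.03 for Meg3 (edgeR, adjusted p = 0.0018). With only the barcodes given a class, which leaves out the droplet-like barcodes that were more common in the WT mice, the difference was 1.08 for Kcnq1ot1 (edgeR, adjusted p = 1.4e-06) and 0.44 for Meg3 (edgeR, adjusted p = 0.25). With droplets of 50 to 200 UMIs, which held only 3, 4, 6 and 6 Kcnq1ot1 UMIs, it was -0.25 for Kcnq1ot1 (edgeR, adjusted p = 1.0). Kcnq1, on the opposite strand, had a difference of 1.13 in the same test.

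Of the lists beside the members in this interaction, 8 of 20 other long noncoding RNAs were higher and 3 lower, among them Lncpint at 1.26, Airn at 1.25 and Pvt1 at 1.16, and Snhg18, a host of small nucleolar RNAs, at -1.21. Of the 24 references for free RNA, 0 were higher and 21 lower. In the barcodes with 1500 or more UMIs the genotypes differed in 1 of the 20 other long noncoding RNAs, Snhg18 at 1.5, and in 0 of the imprinted partners, other imprinted genes, paraspeckle and speckle protein genes. Of the 24 references for free RNA, 11 were higher in the Tg mice there and 0 lower, with a median log2 difference of 1.80.

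The transgene is driven in ECs, so that the genotype difference was compared between EC-like nuclei other than lymphatic ECs and all other classes. Of 6 members tested, 0 passed in edgeR and 0 had an unadjusted p under 0.05, and among all 18699 genes 0 passed (0%), with 1074 at an unadjusted p under 0.05 and 11 called by DESeq2. The interaction was 0.98 with an SE of 0.62 for Meg3 (edgeR, adjusted p = 0.90), 0.20 (SE 0.14) for Malat1 and 0.23 (SE 0.18) for Neat1. Meg3 in ECs was at 15.4, 8.59, 32.6 and 11.5 CPM, so that the genotypes overlapped. Of its 46, 31, 104 and 78 UMIs in ECs, 31 (67.4%), 0, 76 (73.1%) and 19 (24.4%) came from arterial EC-like nuclei, which were 36 of 981 (3.67%), 0 of 924, 99 of 1281 (7.73%) and 58 of 2019 (2.87%) of the EC barcodes. Without WT mouse 1 the interaction of Meg3 was 1.93 (edgeR, adjusted p = 0.029), and without Tg mouse 2 it was 1.69 (edgeR, adjusted p = 2.2e-06). Each of these fits leaves 1 mouse in a genotype, which is assumed to vary like the other mice, and WT mouse 2, the WT mouse left in the former, had no arterial EC-like nuclei.

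Within the 16 classes, 69 tests of members against genotype were made and 0 passed in edgeR, with 9 at an unadjusted p under 0.05 and 12 called by DESeq2, 10 of them of Malat1, 1 of Neat1 and 1 of Rian. Of all gene and class pairs, DESeq2 called 7.88%, and in edgeR 6.57% passed, with 0.877 to 14.6% in single classes. The members differed in how uniform their direction was over classes.

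Malat1 had a positive log2 difference in all 16 classes, from 0.68 to 1.21 with a median of 0.99 and SEs of 0.37 to 0.93 (edgeR, adjusted p = 0.13 to 0.69). Both Tg mice were above both WT mice in 16 of 16 classes, against 30.9% of all gene and class pairs, but the classes share the same 4 libraries. They also hold free RNA, at an estimated 23 to 68.7%, and Malat1 was higher in the droplets of both Tg mice too. Malat1 was at 0.878 to 1.01 times the droplets of the same mouse in T-like nuclei and at 2.2 to 4.03 times in alveolar type 1-like nuclei. The part of free RNA in the class differences was not tested. The smallest adjusted p was in alveolar type 2-like nuclei (the levels are given above), where the difference was 1.06 with an SE of 0.42 (edgeR, adjusted p = 0.13). In that class Tg mouse 1 was far above the other mice, and Tg mouse 2 was nearer to the WT mice than to Tg mouse 1.

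Neat1, by contrast, had a negative difference in all 16 classes, from -0.59 to -0.11 with a median of -0.32 (edgeR, adjusted p = 0.089 to 0.86). Both Tg mice were below both WT mice in 15 of 16 classes, against 27.5% of all gene and class pairs. Neat1 was lower in the droplets of both Tg mice as well. It was at 0.904 to 1.01 times the droplets of the same mouse in T-like nuclei and at 2.32 to 3.68 times in alveolar type 1-like nuclei. The part of free RNA in these differences was not tested either. In club-like nuclei, the secretory cells of the airway, Neat1 was at 1424, 1534, 1083 and 1013 CPM, without overlap of the genotypes. The log2 difference there was -0.50 with an SE of 0.17, the smallest adjusted p among the members (edgeR, adjusted p = 0.089).

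Kcnq1ot1 had a positive difference in all 16 classes in edgeR, from 0.02 in ciliated-like nuclei, where DESeq2 gave -0.0011, to 0.69, with a median of 0.26, but the Tg mice were both above the WT mice in 2, against 30.9% of all gene and class pairs. In lymphatic EC-like nuclei it was at 175, 404, 400.1 and 529 CPM, with overlap of the genotypes and a log2 difference of 0.69 (SE 0.31, edgeR, adjusted p = 0.22). Of the barcodes of this class, 16.7, 31.4, 43.1 and 47.4% were called doublets. WT mouse 1 was the low value here. Without WT mouse 2 the difference was 1.39 (edgeR, adjusted p = 0.0022), but the WT level is then that of WT mouse 1 alone, and the spread comes from the Tg mice only.

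Meg3 could be tested in 12 classes, with 4 positive and 8 negative differences from -0.97 to 0.55 (edgeR, adjusted p = 0.30 to 1.0). In pericyte-like nuclei, where its level was highest among the classes present in every mouse, the difference was 0.19 with an SE of 0.22 (edgeR, adjusted p = 0.74). In lymphatic EC-like nuclei, whose doublet shares are given above, Meg3 was at 15, 23.3, 8.34 and 11.1 CPM, from 46 UMIs in all. It was lower in both Tg mice, with a log2 difference of -0.96 (SE 0.50, edgeR, adjusted p = 0.30). In mesothelial-like nuclei the difference was -0.97 with an SE of 0.74 (edgeR, adjusted p = 0.44), and the Meg3-rich cluster of WT mouse 2 described above bears most of the WT level.

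Rian had a negative difference in all 8 classes tested, from -1.83 to -0.37, and both Tg mice were below both WT mice in 4 of them, against 27.5% of all gene and class pairs. The largest was in mesothelial-like nuclei (SE 0.59, edgeR, adjusted p = 0.12), where WT mouse 1 was as low as the Tg mice and only WT mouse 2 stood apart. Without WT mouse 1 it was -2.49 (edgeR, adjusted p = 5.8e-14), and the WT level then rests on WT mouse 2 alone, with the spread taken from the Tg mice. Mirg could be tested only in this class, with -2.21 (SE 0.97, edgeR, adjusted p = 0.21).

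**Figure D5:**
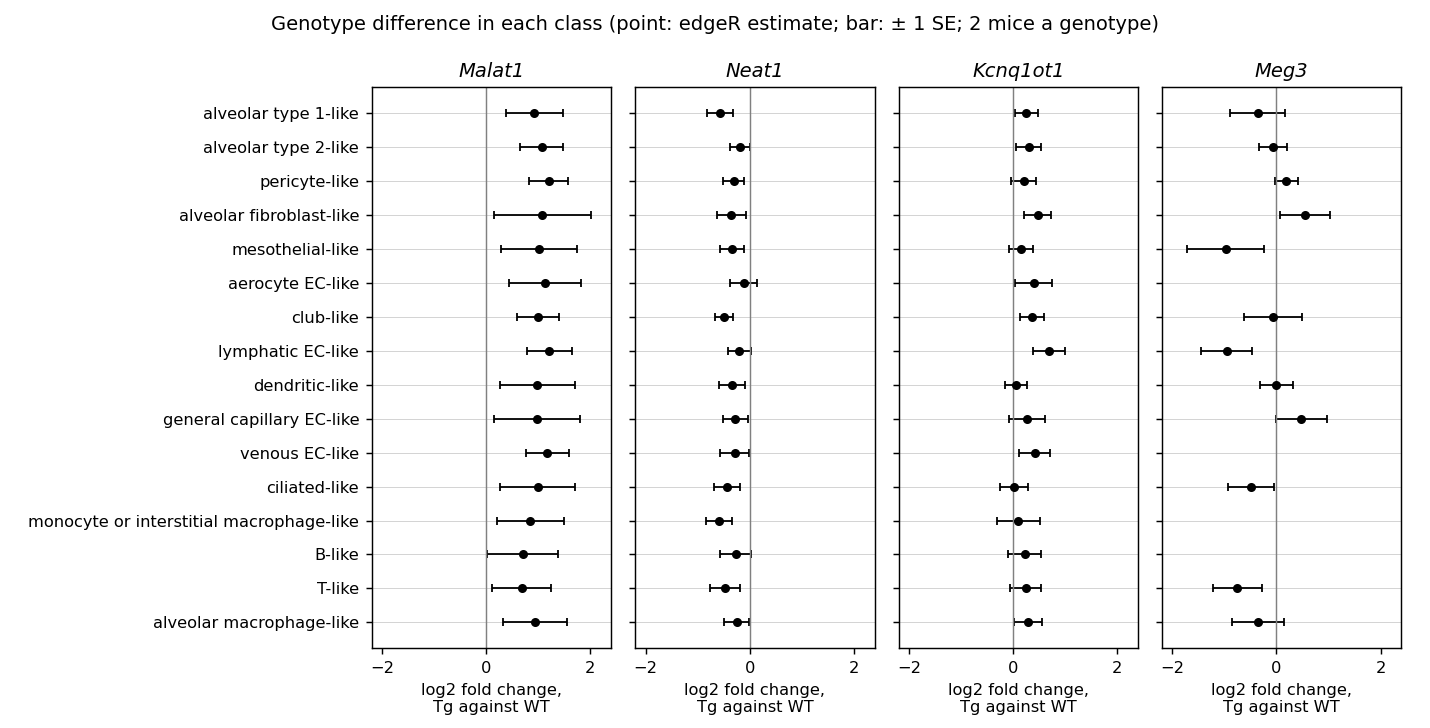
Points give the log2 difference of Tg against WT mice in each class for Malat1, Neat1, Kcnq1ot1 and Meg3, and bars give 1 SE from edgeR. Malat1 and Kcnq1ot1 lie to the right of 0 and Neat1 to the left in all 16 classes (Kcnq1ot1 in ciliated-like nuclei is -0.0011 in DESeq2), Meg3 lies on both sides, and no point passes an adjusted p of 0.05.

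Over the same classes, the paraspeckle protein genes were higher in 0 and lower in 4 of 271 tests and the speckle protein genes higher in 0 and lower in 6 of 335. Of 251 tests of other long noncoding RNAs, 14 were higher and 23 lower. The higher ones were Gas5 in 8 classes and Snhg18 in 6, and Gm26917 alone gave 14 of the lower ones. The partners in the imprinted domains of the members were higher in 14 and lower in 2 of 97. Cd81, a tetraspanin gene, gave all 14 and Kcnq1 both of the lower ones. Other imprinted genes were higher in 24 and lower in 1 of 166 tests, with the higher ones from Igf2r in 9 classes, Ndn in 6, Gnas in 5, Mest in 3 and Nnat in 1. Of all gene and class pairs, 5.4% were higher and 1.16% lower. The references for free RNA were higher in 296 of 381 tests.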

How the data were processed

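Per mouse, the authors deposited 1 matrix with the UMI counts of 32285 genes in all barcodes, as whole numbers and unfiltered; per the submitters' processing notes it was made with Cell Ranger 6.1.1 on mm10, and the study's methods state that intronic reads were counted. The study's later filters, doublet removal and removal of ambient RNA are not part of these values. Counting intronic reads adds reads only to genes with annotated introns. Exons cover 100% of the span of Malat1, Neat1 and Kcnq1ot1. They cover 58.9% of Meg3, 31.6% of Rian, 37.0% of Mirg and 94.1% of H19. The effect on the levels was not tested, and free RNA enters every barcode. Per-sample columns not used numbered 0.

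CPM were computed here as UMIs per 1000000 UMIs of the same sum. Nuclei were taken as barcodes with 1500 or more UMIs and droplets as barcodes with 300 to 800. In each mouse barcodes were clustered (2000 variable genes without members and listed genes, 30 principal components, 15 neighbours, Leiden resolution 1.0, then 20 components and 0.8 within lineages). A cluster was named from 8 markers for each of 23 classes when at least 3 were 2-fold higher, and clusters whose correlation with the droplets was at least 0.95 were set aside as droplet-like. Doublets were kept; barcodes better described by a mixture of 2 classes than by 1 class and free RNA (log-likelihood margin 20) were 2.58, 4.68, 18.2 and 17.1% per mouse and were left out as an alternative. Shares of barcodes with a UMI were taken after thinning to 1500 UMIs.

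UMIs were summed per mouse and class and tested with edgeR's quasi-likelihood test (TMM, filterByExpr with a minimum of 10) with Benjamini-Hochberg adjustment over all genes tested. The mouse was a block where nuclei and droplets, or ECs and other classes, of the same mouse were compared. An exact permutation test of 2 against 2 mice cannot go below p = 0.3333. The fit was tested on simulated data with known changes. The 7 members were named with their values, and of each list at most 4 genes with the largest change past an adjusted p of 0.05, and for members with at least 1000 UMIs the 3 genes of most similar class order among genes with at least 1000. The members and lists were chosen with earlier results of these data known. Alternatives were DESeq2, no TMM factors, no filter, each mouse left out, the replicate number as a block, 3000 UMIs for nuclei, droplets of 50 to 200 UMIs, doublets left out, free RNA subtracted and free RNA references left out. Only barcodes given a class and droplets of 801 to 1499 UMIs were added after seeing the data. The tools were edgeR 4.0.16, DESeq2 1.42.0 and limma 3.58.1 in R 4.3.3, and Python 3.11.15, NumPy 2.4.6, SciPy 1.17.1, pandas 2.3.3, igraph 0.11.9, leidenalg 0.10.2 and matplotlib 3.10.9. Binomial intervals (95%, exact) cover counting error only. The sequence of some items is not reported here.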

Additional observations from a re-analysis of the deposited data

Results flagged for a closer look

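The members Kcnq1ot1 and Meg3 had a rise from droplets to barcodes with 1500 or more UMIs that differed between the genotypes by the interaction test in edgeR. For Kcnq1ot1 the log2 rise was 1.18 larger in the Tg mice (edgeR, adjusted p = 6.4e-05), with ratios of 1.33 and 1.56 in WT mice against 4.66 and 3.04 in Tg mice. For Meg3 it was 0.94 larger (edgeR, adjusted p = 0.0089), with ratios of 1.3 and 1.69 against 3.44 and 4.29. All Tg ratios were above all WT ratios for both genes, but the share of all genes with this order was not computed. Rian, which did not pass, had the same order, with only 2 UMIs in the droplets of Tg mouse 2. In the interaction test 26.2% of all genes passed, close to the 2 of 7 members. The Meg3 difference did not pass with only the barcodes given a class (0.44, edgeR, adjusted p = 0.25), with doublets left out (0.60, edgeR, adjusted p = 0.10) or without WT mouse 1 (0.94, edgeR, adjusted p = 0.072). The Kcnq1ot1 difference was -0.25 (edgeR, adjusted p = 1.0) against droplets of 50 to 200 UMIs, which held 3 to 6 of its UMIs per mouse.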

How the results depend on the processing

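The tally of recomputed values covers the comparisons not made class by class. Of the tests within classes it holds, for each member tested, only the class with the smallest adjusted p. Of these values, 389 stayed on their side of the threshold (27 of them with a change of sign that passed in neither setting). Another 23 newly passed, 8 no longer passed and 1 reversed. In the comparison of nuclei with droplets, 2 members passed; the number was 4 with 3000 UMIs for a nucleus, 4 with only the barcodes given a class, 1 with droplets of 50 to 200 UMIs, and 0 to 2 with a mouse left out. Genotype in the droplets gave 0, and 1 in DESeq2. For the genotype difference between nuclei and droplets, 2 members passed; 0 did with droplets of 50 to 200 UMIs, 1 with doublets left out, 1 with only the barcodes given a class, and 1 to 3 with a mouse left out. The value that reversed was Kcnq1ot1 in this comparison, at -0.25 with droplets of 50 to 200 UMIs, which held 3 to 6 of its UMIs per mouse; the cause was not tested. Meg3 in this comparison was 0.60 with doublets left out (edgeR, adjusted p = 0.10), 0.94 without WT mouse 1 (edgeR, adjusted p = 0.072) and 0.44 with only the barcodes given a class (edgeR, adjusted p = 0.25). For the difference between ECs and other classes, 0 members passed, and 0 to 1 did with a mouse left out. Within classes 0 of 69 tests passed; 12 did in DESeq2, 1 without TMM factors, 12 of the 101 then tested with no filter, 3 with the replicate block and 0 to 8 with a mouse left out, where the lone mouse of a genotype is assumed to vary like the others. Meg3 in all nuclei between genotypes ranged from -0.27 with only the barcodes given a class to 0.81 without WT mouse 2, without passing.

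The replicate numbers in the labels give only 2 pairs, too few to show that they pair the mice; the deviations of mice with the same number correlated at 0.25 in all nuclei and 0.13 in the droplets. With the replicate block 0 members passed in all nuclei, 0 in the droplets and 3 in the classes, among them Rian in mesothelial-like nuclei at -1.58 (edgeR, adjusted p = 0.0060) and Kcnq1ot1 in lymphatic EC-like nuclei at 0.78 (edgeR, adjusted p = 0.016).

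The counts of all genes past the threshold moved further. Between the genotypes in all nuclei, 815 were higher and 43 lower, against 2368 and 908 in DESeq2, 2285 and 407 with the replicate block, 6 and 1 with doublets left out, and 0 and 0 without Tg mouse 1 or Tg mouse 2. Between nuclei and droplets 2714 and 3413 became 0 and 0 without Tg mouse 2 and 4980 and 4885 with 3000 UMIs. In the droplets 2208 and 1675 became 0 and 0 without Tg mouse 1 and 1757 and 2500 without TMM factors, where the median of all genes moved from 0.04 to -0.22. For the difference between nuclei and droplets, 2844 and 2417 became 4786 and 1138 without TMM factors, where the median moved from 0.02 to 0.30. Depth limits Mirg and H19, and droplets of 50 to 200 UMIs held 0 UMIs of Meg3, Rian and Mirg.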
